A study of Mus musculus with 16 samples.

Results

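Phase II conjugating enzymes join a foreign or endogenous molecule to a charged or polar group so that it can be exported. Here they are the glutathione transferases, the cytosolic sulfotransferases (SULT) and the UDP-glucuronosyltransferases. Members were taken by symbol alone: genes whose names begin with Gsta, Gstm, Gstp, Gstt, Gsto, Gstk, Gstz, Mgst, Ugt1, Ugt2 or Sult, each read by 1 probe set. The rule found 53 of the 19505 genes tested: 24 glutathione transferases, 21 SULT genes and 8 UGT2 genes. No Ugt1 gene was found by it, and neither Ugt2a1 nor Ugt2a2 was among the UGT2 genes it found. By class, the glutathione transferases were 7 mu, 4 theta, 3 alpha, 3 pi, 2 omega, 1 kappa, 1 zeta and 3 membrane-bound (microsomal) genes.

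Cells were sorted from olfactory mucosa, and the mice were S100a5-tauGFP animals, whose GFP reports S100a5, a calcium-binding protein gene that olfactory neurons raise when active. Each of the 4 groups (GFP+ and GFP- cells after octanol, and both after vehicle) had 4 Clariom S arrays, and each array held the sorted cells of 3 pooled mice of either sex, aged 7 to 12 weeks. The mice stood alone for 40 h under clean air at 3.1 L/min, and from 26 h they received a 10 s pulse of octanol, an odorous alcohol, or of filtered air (the vehicle) every 20 min. All groups carry the reporter, and the sort separates cells by it, so the GFP- fraction can hold other cells of the mucosa together with neurons whose reporter was low.

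Glutathione transferases attach the thiol of glutathione to electrophiles, and several also reduce peroxides. SULTs transfer sulfate from PAPS to phenols, alcohols and steroids, and UGTs transfer glucuronic acid from UDP-glucuronate. The olfactory mucosa is known for strong expression of such enzymes together with cytochromes P450, above all in sustentacular cells and Bowman glands, where they clear odorants and guard against inhaled chemicals. An alcohol can be conjugated directly by a SULT or a UGT.

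The array signals are on a log2 scale and compare 1 gene between arrays; signals of different probe sets do not compare as levels. S100a5 itself differed by 0.82 log2 after vehicle, higher in GFP+ cells. The marker of mature sensory neurons Omp lay between 17.98 and 18.24 log2 in all 16 arrays, so both fractions hold neurons. A background level of 6.32 log2 was set at the 95th percentile of 321 vomeronasal receptor genes. Of the members, 27 had a group mean above it, 18 of these in all 4 groups, and 26 had none above it. Each array is a pool, and p-values measure the spread between pools.

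Stretches of promoter are shown for the members lower in GFP+ cells after both exposures whose window of 250 bases before the gene start holds TGACNNNGC, the core of the antioxidant response element bound by Nrf2. The capitals mark that core, each line reads 5′ to 3′ along the gene's own strand, and the sequences are RefSeq's for GRCm38.p6. In Mgst1 the core lies on the opposite strand and reads as its reverse complement.
Mgst1 (chr6:138140446-138140504, plus strand): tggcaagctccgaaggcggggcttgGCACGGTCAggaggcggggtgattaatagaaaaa
Gsta3 (chr1:21240439-21240497, plus strand): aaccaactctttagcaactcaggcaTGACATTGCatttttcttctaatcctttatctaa
Gstm5 (chr3:107895787-107895845, plus strand): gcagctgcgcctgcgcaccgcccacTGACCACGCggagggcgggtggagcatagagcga
Gstm7 (chr3:107931710-107931768, minus strand): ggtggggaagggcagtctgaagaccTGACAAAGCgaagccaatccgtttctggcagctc
The core begins 56, 121, 42 and 129 bases before an annotated start of Mgst1, Gsta3, Gstm5 and Gstm7. Mgst1 and Gstm7 each have a further annotated start whose window holds no such core. For shares, both strands of the full 300-base windows were searched, which add 50 bases after the start. The core was in 4 of the 47 members with a window (8.51%) and in 15% of the promoters of 15691 tested genes. TNGCGTG, the core bound by the aryl hydrocarbon receptor, was in 4.26% of the members' windows (Sult1d1 and Gsta2) and in 7.14% of all. A match is a run of letters and not a shown binding site.

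The adjacent pi-class genes Gstp1 and Gstp2 on chromosome 19 are shown because both were lower in GFP+ cells in 8 of 8 pools and because their promoters resemble each other. The 250 bases before their starts were identical at 208 of 265 aligned columns (78.5%), against 50.7% for Gstp1 and Gstp3. Gstp3, under background, was also lower in 8 of 8 pools, as were other members such as Mgst1. A link between promoter likeness and the difference was not tested. Both genes lie on the strand given and no letter is marked.
Gstp1 (chr19:4037913-4038162, minus strand): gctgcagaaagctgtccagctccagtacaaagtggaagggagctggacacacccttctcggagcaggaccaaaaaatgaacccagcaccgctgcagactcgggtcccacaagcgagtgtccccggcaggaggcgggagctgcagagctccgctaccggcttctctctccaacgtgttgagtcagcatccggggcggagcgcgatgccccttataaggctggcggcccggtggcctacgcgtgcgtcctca
Gstp2 (chr19:4042222-4042471, minus strand): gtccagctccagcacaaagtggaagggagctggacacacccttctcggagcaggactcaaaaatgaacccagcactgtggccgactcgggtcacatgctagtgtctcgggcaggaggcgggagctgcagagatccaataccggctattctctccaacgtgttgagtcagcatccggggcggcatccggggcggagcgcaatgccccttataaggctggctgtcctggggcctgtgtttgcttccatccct

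After vehicle, conjugating enzymes were more often lower than higher in GFP+ cells. Of 53 members, 17 were lower and 4 higher past an adjusted p of 0.05 in limma, and 32 were not called. The background was 13.5% of all genes lower and 14.7% higher, against 32.1% and 7.55% of the members. The members' median difference was -0.06 log2 and that of all genes 0.13. After octanol, with other mice, 18 members were lower (34%; background 13.2%) and 7 higher (13.2%; background 16.7%), with a median of 0.02 against 0.14 for all genes. Both exposures were fitted together and share each gene's estimate of spread, so their calls are not independent. Of the calls, 17 lower and 2 higher stood after both exposures, 14 and 1 of them in members with a group mean above the background level. A gene lower in GFP+ cells can pass that level through its GFP- mean alone, as Gstm7, Sult1a1, Sult2b1 and Sult6b1 did. The 14 therefore add no support of their own. The share of all genes called after both was not counted, so these counts have no background of their own. That share cannot exceed the smaller share called after a single exposure, which was 13.2% lower and 14.7% higher.

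The split between lower and higher depends on how arrays are scaled, since all genes shift with it. With each array centred on its median, the median of all genes became 0.46 log2 after vehicle and 0.41 after octanol. Then 25 members were higher and 15 lower after vehicle, with 21 and 14 after octanol. Of all 19505 genes, 12759 were higher and 1986 lower after vehicle, with 11401 and 2028 after octanol. With arrays centred on odorant receptor genes, the all-gene median was -0.04 and -0.20, and 0 members were higher and 21 lower after each exposure. All genes moved the same way, with 1001 higher and 3113 lower after vehicle, and 713 and 4832 after octanol. Of 24 glutathione transferases as deposited, 12 were lower (50%; all genes 13.5%) and 0 higher after vehicle. After octanol 13 were lower (54.2%; all genes 13.2%) and 1 higher (4.17%; all genes 16.7%). All 12 and all 13 kept a negative difference under the 3 other scalings, and 11 to 13 of them stayed past the threshold; median centring lost Gstt3 in both exposures and Gstm3 after octanol, which quantile normalization also lost. Among the 24, 1 to 5 genes changed sign with the scaling, none of them among the lower calls, and median centring called 5 higher. The higher calls among SULT and UGT2 genes fell to 0 with receptor centring, where each difference stayed positive except that of Sult4a1 after octanol.

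**Figure D1:**
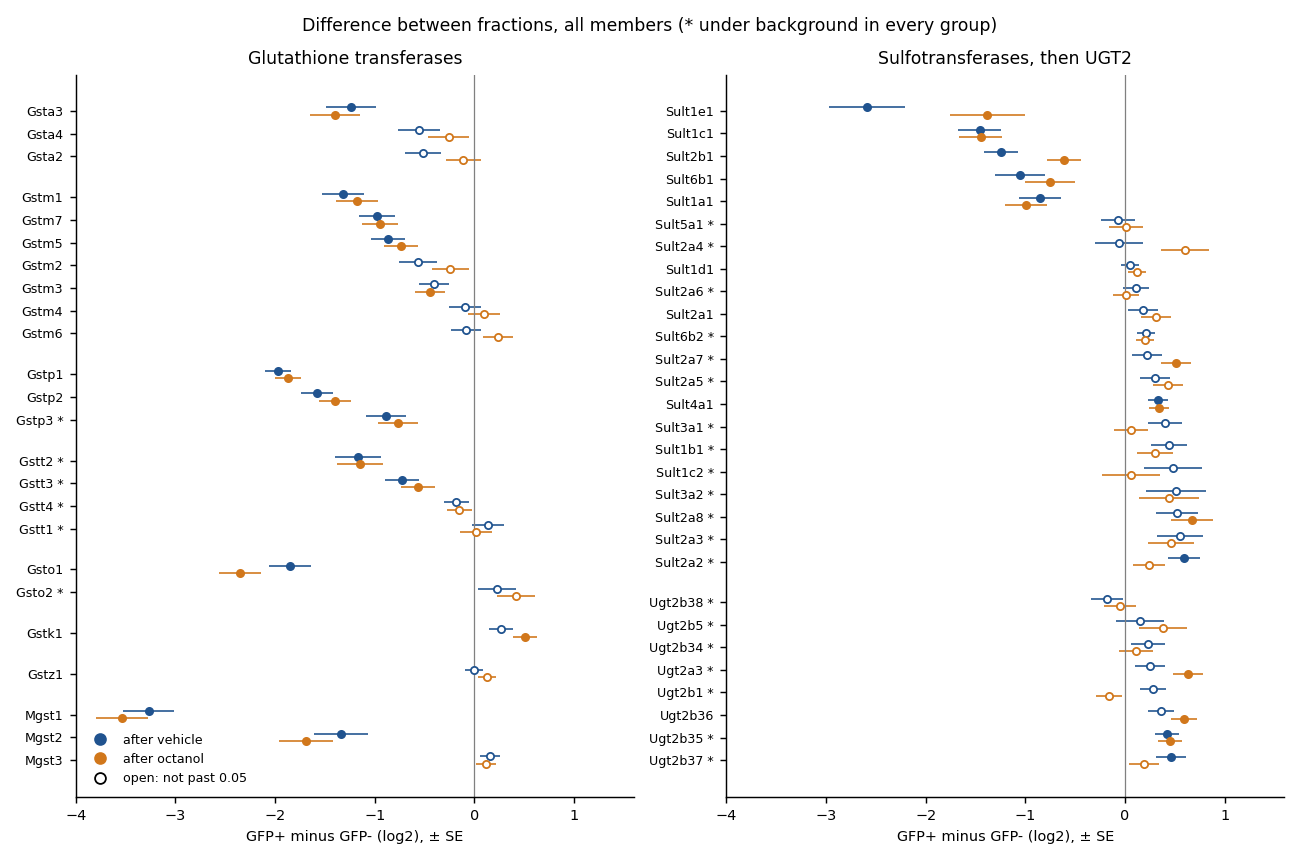
Difference between GFP+ and GFP- cells (log2, x axis) of all 53 members with its standard error, after vehicle (blue) and octanol (orange); filled points passed an adjusted p of 0.05 and a star marks genes under background in every group. Mgst1 lies farthest left at -3.27 and -3.54 log2, while Mgst3, Sult1d1 and Gstz1 lie near 0.

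Mgst1 is a membrane-bound glutathione transferase and peroxidase of the endoplasmic reticulum and outer mitochondrial membrane. After vehicle its signal was 12.16, 12.25, 12.51 and 12.96 log2 in the GFP- arrays and 8.75, 9.56, 9.32 and 9.18 in the GFP+ arrays of replicates 1 to 4. The octanol arrays gave 13.55, 12.57, 12.76 and 13.04 in GFP- and 9.22, 8.92, 10.24 and 9.38 in GFP+ cells. The fractions did not overlap in either exposure. GFP+ cells were 9.64-fold lower after vehicle (-3.27 log2 ± 0.26 SE, adjusted p = 8.00e-06) and 11.6-fold lower after octanol (-3.54 ± 0.26, adjusted p = 4.66e-06). This was the largest difference of any member.

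Mgst2, which can also make leukotriene C4, was 9.73, 9.03, 9.32 and 10.63 log2 in GFP- and 8.28, 8.34, 8.25 and 8.50 in GFP+ arrays after vehicle. After octanol the values were 10.29, 9.44, 9.81 and 10.54 against 8.09, 8.29, 8.73 and 8.20. All GFP- arrays lay above all GFP+ arrays, with the widest spread in GFP-. The differences were -1.34 ± 0.27 (2.53-fold, adjusted p = 0.0043) and -1.69 ± 0.27 (3.23-fold, adjusted p = 9.87e-04).

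The third microsomal gene, Mgst3, did not follow them. It was 13.91, 13.87, 13.72 and 13.79 log2 in GFP- and 14.16, 13.90, 13.96 and 13.93 in GFP+ arrays after vehicle, and from 13.69 to 14.14 in the 8 arrays after octanol. The difference was 0.16 log2 after vehicle (95% interval -0.06 to 0.39) and 0.12 after octanol (-0.10 to 0.34), neither past the threshold. With arrays centred on their medians it was called higher, at 0.50 log2 after vehicle, where the all-gene median was itself 0.46.

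**Figure D2:**
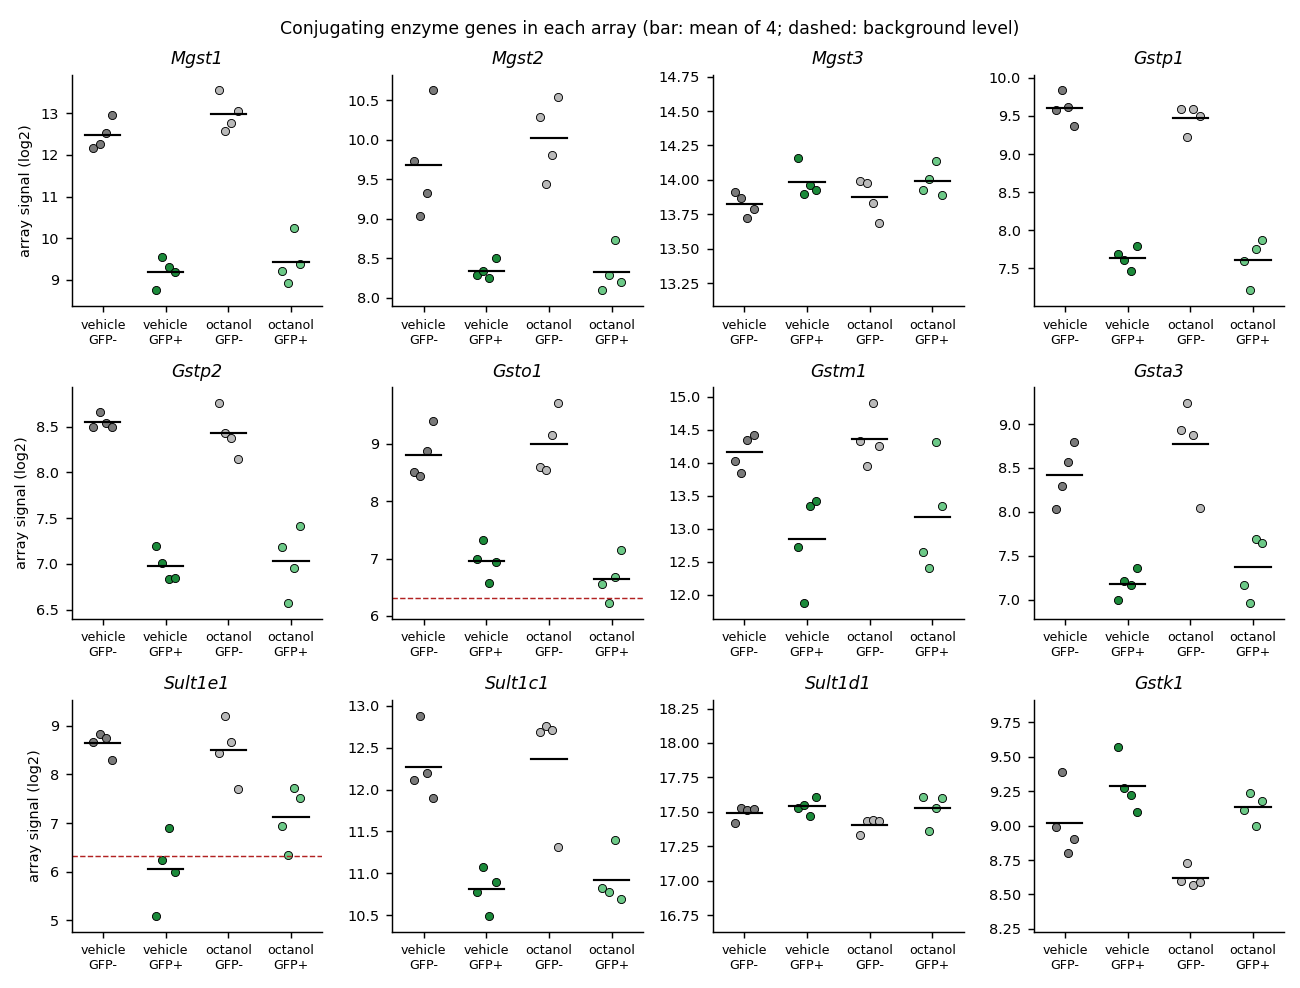
Array signal (log2, y axis) of 12 conjugating enzyme genes in each of the 16 arrays by group; bars are means of 4 and the dashed line is the background of 6.32. GFP+ points lie below GFP- points for Mgst1, Mgst2, Gstp1, Gstp2 and Gsto1 in both exposures, and Sult1d1 lies between 17.33 and 17.61 in all 16 arrays.

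In the pi class, whose enzymes detoxify electrophiles and also bind signalling kinases, all 3 genes were lower in GFP+ cells after both exposures. Gstp1 was 9.58, 9.84, 9.62 and 9.37 log2 in GFP- and 7.69, 7.61, 7.46 and 7.79 in GFP+ arrays after vehicle. In the octanol arrays it was 9.59, 9.22, 9.59 and 9.50 against 7.59, 7.21, 7.75 and 7.87. The gap between the fractions was wide beside the spread within them: -1.97 ± 0.13 (3.91-fold, adjusted p = 2.00e-06) and -1.87 ± 0.13 (3.66-fold, adjusted p = 2.73e-06).

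Gstp2, its neighbour with the similar promoter, was 8.50, 8.66, 8.54 and 8.50 log2 in GFP- and 7.20, 7.01, 6.83 and 6.85 in GFP+ arrays after vehicle. After octanol it was 8.76, 8.43, 8.38 and 8.15 against 7.19, 6.57, 6.96 and 7.42. Again no array of one fraction reached the other, with differences of -1.58 ± 0.16 (2.98-fold, adjusted p = 5.93e-05) and -1.40 ± 0.16 (2.63-fold, adjusted p = 1.40e-04). Gstp3 was called lower too (-0.89 and -0.77), but all its arrays lay under background, so no fold is given. The Gstp3 call after octanol was lost without octanol replicate 1, 3 or 4. Genes of the pi, mu, SULT2A and UGT2B clusters are paralogues, and how far a probe set reads a related gene's RNA was not tested.

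Gsto1, an omega-class enzyme with thioltransferase and dehydroascorbate reductase activity, was 8.50, 8.43, 8.88 and 9.40 log2 in GFP- and 6.99, 7.32, 6.57 and 6.94 in GFP+ arrays after vehicle. After octanol it was 8.59, 8.54, 9.16 and 9.71 against 6.55, 6.22, 6.67 and 7.14, with 1 GFP+ array under background. GFP+ cells were the lower in every pool. The difference was -1.85 ± 0.21 after vehicle (3.6-fold, adjusted p = 1.00e-04) and -2.35 ± 0.21 after octanol (at least 5.03-fold, adjusted p = 1.74e-05). Its partner Gsto2 stayed under background in all groups.

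The 7 mu genes stand next to each other on chromosome 3, and they divided. Gstm1 was 14.03, 13.85, 14.34 and 14.42 log2 in GFP- and 12.73, 11.87, 13.34 and 13.42 in GFP+ arrays after vehicle. The values after octanol were 14.33, 13.95, 14.91 and 14.25 against 12.65, 12.40, 14.31 and 13.34, where GFP+ replicate 3 overlapped the GFP- arrays. Within every pool GFP+ was lower: -1.32 ± 0.21 (2.5-fold, adjusted p = 0.00107) and -1.18 ± 0.21 (2.27-fold, adjusted p = 0.00214).

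Gstm5 (-0.87 after vehicle and -0.74 after octanol, adjusted p = 0.0045 and 0.0101) and Gstm7 (-0.98 and -0.95, adjusted p = 0.00265 and 0.003) were lower as well. Gstm7 in GFP+ cells was above background in 1 of 4 arrays of each exposure, so its fold is at least 1.7 and at least 1.82. Gstm3 passed after octanol only (-0.45, adjusted p = 0.0425; -0.41 after vehicle, adjusted p = 0.0595), and the call was lost under 9 of the alternatives tried. The exposures were compared by its ratio, which did not pass (adjusted p = 0.998).

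Gstm2 gave -0.57 (adjusted p = 0.0506) and -0.24, and was called lower with receptor centring. Gstm4, flanking Gstm1, was 10.28, 10.78, 10.30 and 10.34 log2 in GFP- and 10.35, 10.19, 10.27 and 10.53 in GFP+ arrays after vehicle, and 9.76 to 10.58 over the 8 arrays after octanol. Its fractions overlapped, with a difference of -0.09 (95% interval -0.44 to 0.27) and 0.10 (-0.26 to 0.45). Gstm6 lay close to background in every group.

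Among alpha genes, Gsta3, which conjugates reactive epoxides in rodents, was lower in GFP+ cells. It was 8.03, 8.30, 8.57 and 8.79 log2 in GFP- and 7.00, 7.21, 7.17 and 7.36 in GFP+ arrays after vehicle, and 8.93, 9.24, 8.88 and 8.05 against 7.17, 6.96, 7.69 and 7.65 after octanol. The fractions did not overlap, and the differences were -1.24 ± 0.25 (2.35-fold, adjusted p = 0.0043) and -1.40 ± 0.25 (2.64-fold, adjusted p = 0.00196). Gsta4, whose enzyme takes the lipid peroxidation product 4-hydroxynonenal, gave -0.56 (adjusted p = 0.0728) and -0.26 (adjusted p = 0.369), and Gsta2 gave -0.52 (adjusted p = 0.056) and -0.11.

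All 4 theta genes were under background in every group. Gstt2 was 5.93, 5.87, 5.62 and 5.08 log2 in GFP- and 4.42, 4.44, 4.21 and 4.75 in GFP+ arrays after vehicle, and 5.88, 5.77, 4.84 and 5.91 against 4.29, 4.14, 3.96 and 5.39 after octanol. It was called lower (-1.17 and -1.15, adjusted p = 0.00426 and 0.00453), as was Gstt3 (-0.73 and -0.57), and neither fold is given at these signals. With arrays centred on their medians the Gstt3 calls were lost, and that after octanol was also lost without octanol replicate 1, 2 or 3 (adjusted p from 0.0654 to 0.118).

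Gstz1, the maleylacetoacetate isomerase of tyrosine breakdown, was 10.52, 10.80, 10.55 and 10.39 log2 in GFP- and 10.69, 10.69, 10.46 and 10.43 in GFP+ arrays after vehicle, and 10.26 to 10.77 over the arrays after octanol. Its difference was 0.00 (95% interval -0.21 to 0.22) and 0.13 (-0.08 to 0.34), with overlapping fractions. Gstk1, a transferase of mitochondria and peroxisomes, was the 1 glutathione transferase called higher in GFP+ cells. It was 0.27 higher after vehicle (adjusted p = 0.12) and 0.51 ± 0.12 after octanol (1.42-fold, adjusted p = 0.0102), and with receptor centring that call was lost (0.17, adjusted p = 0.393). The change in its ratio did not pass either (0.24, adjusted p = 0.998).

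Of the 21 SULT genes, 5 were lower (23.8%) and 2 higher (9.52%) in GFP+ cells after vehicle. After octanol 5 were lower (23.8%) and 3 higher (14.3%). Of all genes, 13.5% were lower and 14.7% higher after vehicle, and 13.2% and 16.7% after octanol. Sult1d1, which acts on catecholamines and other phenols, had the highest signal of all members. It was 17.42, 17.53, 17.51 and 17.52 log2 in GFP- and 17.53, 17.55, 17.47 and 17.61 in GFP+ arrays after vehicle, and 17.33, 17.43, 17.44 and 17.43 against 17.61, 17.36, 17.53 and 17.60 after octanol. The fractions overlapped after each exposure. The difference was 0.05 (95% interval -0.16 to 0.26) and 0.12 (-0.09 to 0.33). Values this near the top of the deposited range (18.70 log2) may be compressed, which was not tested, and the sign of the difference turned with receptor centring (-0.11 and -0.22), while median centring called it higher (0.38 and 0.39).

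Sult1c1, of the SULT1C class, was 12.11, 12.88, 12.20 and 11.90 log2 in GFP- and 10.78, 11.08, 10.49 and 10.90 in GFP+ arrays after vehicle. After octanol it was 12.69, 12.76, 12.71 and 11.32 against 10.82, 10.78, 11.40 and 10.69, with GFP- replicate 4 below the others of its group and below GFP+ replicate 3. The differences were -1.46 ± 0.22 (2.75-fold, adjusted p = 6.56e-04) and -1.45 ± 0.22 (2.73-fold, adjusted p = 6.96e-04), GFP+ being lower in 8 of 8 pools.

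Sult1e1, the estrogen sulfotransferase, lies next to Sult1d1 on chromosome 5. It was 8.67, 8.83, 8.76 and 8.30 log2 in GFP- and 5.08, 6.24, 6.89 and 6.0 in GFP+ arrays after vehicle, 1 of the latter above background. After octanol it was 8.44, 9.21, 8.67 and 7.70 against 6.93, 6.35, 7.72 and 7.51, all 8 above background, and GFP+ replicate 3 overlapped GFP- replicate 4. GFP+ cells were at least 4.53-fold lower after vehicle (-2.59 ± 0.38, adjusted p = 6.58e-04) and 2.6-fold lower after octanol (-1.38 ± 0.38, adjusted p = 0.0229). The call after octanol was lost without octanol replicate 1 (adjusted p = 0.0816) or replicate 2 (0.0821).

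A further 3 SULT genes near background were lower after both exposures: Sult2b1, the cholesterol and pregnenolone sulfotransferase (-1.24 and -0.61), Sult6b1 (-1.05 and -0.75) and the phenol sulfotransferase Sult1a1 (-0.85 and -0.99). None had a GFP+ array above background. The fold was at least 1.24, 1.28 and 1.22 after vehicle. After octanol it was at least 1.11 for Sult6b1 and 1.19 for Sult1a1, and Sult2b1 has none, since its GFP- mean (6.19 log2) was then under background too. Single pools decided part of these calls: that of Sult2b1 after octanol was lost without any 1 of the 4 octanol replicates, and that of Sult1a1 after vehicle without vehicle replicate 2 or 4 (adjusted p = 0.0621 and 0.0601). The call of Sult6b1 after vehicle was lost without vehicle replicate 2 (0.0524), and that after octanol (adjusted p = 0.048) under 8 of the alternatives tried.

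Sult4a1, a neuronal member of unsettled substrate, was higher in GFP+ cells. It was 13.80, 14.05, 13.94 and 13.84 log2 in GFP- and 14.28, 14.35, 14.24 and 14.10 in GFP+ arrays after vehicle, and 13.56, 13.92, 14.02 and 13.79 against 14.13, 14.12, 14.18 and 14.23 after octanol. The fractions did not overlap, but the gap was small: 0.33 ± 0.10 (1.26-fold, adjusted p = 0.0367) and 0.34 ± 0.10 (1.27-fold, adjusted p = 0.0329). With receptor centring both calls were lost and the value after octanol was -0.00217. The call after vehicle was also lost without any 1 of the vehicle replicates (adjusted p from 0.0802 to 0.132), though the difference itself stayed at 0.29 to 0.36, and without octanol replicate 4 (0.0525). That after octanol was lost without octanol replicate 1 or 4 (adjusted p = 0.132 and 0.117).

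The SULT2A genes, hydroxysteroid sulfotransferases best known from liver, were near or under background: of 8, Sult2a1 alone had a group mean above it, at most 6.69 log2. Calls of Sult2a2 after vehicle (0.59) and of Sult2a7 and Sult2a8 after octanol (0.51 and 0.67), all higher in GFP+ cells, were of genes under background, and each was lost when at least 1 replicate was left out. The UGT2 genes found were the same, Ugt2b36 alone being above it. Ugt2a1 and Ugt2a2 were not among them, so these values say nothing of those genes. Ugt2b36 was 6.15, 6.31, 6.48 and 6.37 log2 in GFP- and 6.69, 6.50, 6.81 and 6.73 in GFP+ arrays after vehicle, and 6.13, 5.88, 6.57 and 6.30 against 7.02, 6.54, 7.26 and 6.41 after octanol. It was called higher after octanol (0.59, adjusted p = 0.0081) and not after vehicle (0.36, adjusted p = 0.0681), its ratio did not pass (adjusted p = 0.998), and the call was lost with receptor centring.

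The 2 UGT2 genes higher after vehicle were Ugt2b35 (0.42) and Ugt2b37 (0.46), and the 3 after octanol Ugt2a3, Ugt2b35 and Ugt2b36. These are 25% and 37.5% of the 8 UGT2 genes, against 14.7% and 16.7% of all genes. Apart from Ugt2b36 their group means ran from 3.63 to 5.63 log2, under background, where a difference has no interpretable fold, and each of those calls was lost when at least 1 replicate was left out.

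Of the enzymes and carriers that make and recycle glutathione, 12 were measured. After vehicle 3 were lower and 0 higher in GFP+ cells: Gsr, glutathione reductase (-1.49 ± 0.17), Slc7a11, the cystine carrier (-0.76 ± 0.17), and Gclc, the catalytic subunit of the limiting synthetic step (-0.31 ± 0.10). The list median was -0.18 log2, against 0.13 for all genes. After octanol again 3 were lower and 0 higher. For this list and the pathway and marker lists below, 13.5% of all genes were lower and 14.7% higher after vehicle. After octanol these shares were 13.2% and 16.7%. All these lists are given as deposited, and the other scalings were not counted for them. The all-gene median after vehicle was 0.46 with median centring and -0.04 with receptor centring, so small differences depend on the scaling.

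Other enzymes that use glutathione were lower in 9 of 18 and higher in 1. Glrx, glutaredoxin, was 38.4-fold lower (-5.26 ± 0.25, from 11.83 ± 0.45 to 6.56 ± 0.46 log2; SD, n = 4), and the peroxidase Gpx1 was 13.8-fold lower (-3.79 ± 0.19). Hpgds, the hematopoietic prostaglandin D synthase and itself a sigma-class transferase, was -1.86 ± 0.33, and Ptges -0.87 ± 0.12. Gdap1 was the 1 gene higher (0.40 ± 0.12).

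Of the 6 genes listed for UDP-glucuronate supply and glucuronate removal, 2 were lower and 1 higher after vehicle: Gusb, the lysosomal glucuronidase (-2.22 ± 0.12), Slc35d2, a nucleotide sugar carrier (-1.27 ± 0.23), and Slc35a1, which carries CMP-sialic acid (0.38 ± 0.12). Of 9 measured genes of sulfate donor supply and desulfation 0 were lower and 1 was higher, the arylsulfatase Arsa (0.45 ± 0.12). The list's median was 0.17, close to that of all genes.

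Among 13 measured genes of other conjugating transferases, 3 were lower and 2 higher, led by Hnmt, histamine N-methyltransferase (-1.14 ± 0.33), Ugt8a (-1.11 ± 0.19) and Nnmt, nicotinamide N-methyltransferase (0.76 ± 0.19). Only 7 of the 13 had a group mean above background. The list's median was 0.19, against 0.13 for all genes. Among 11 genes of conjugate export, 2 were lower and 1 higher: Rdx, radixin, which anchors membrane transporters to actin (-3.36 ± 0.14), the efflux pump Abcg2 (-1.76 ± 0.22), and Abcc1, which exports glutathione conjugates (0.35 ± 0.09).

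The list of Nrf2, the factor of the antioxidant response element, and its targets gave 2 higher and 2 lower of 16: Srxn1, sulfiredoxin (0.96 ± 0.15), Maff (0.38 ± 0.10), Bach1 (-0.50 ± 0.13) and Txn1 (-0.46 ± 0.14). The list's shares were near those of all genes (14.7% higher and 13.5% lower), as was its median (0.12 against 0.13). Of 10 xenobiotic receptor genes, 2 were higher, Rxra (0.63 ± 0.14) and Ahr (0.59 ± 0.14), and 0 lower. Phase I oxidation partners were lower in 7 of 15 and higher in 1, with Cyp1a2 (-1.46 ± 0.31), Cyp2a5 (-1.21 ± 0.29), Cyp2f2 (-1.09 ± 0.30) and Cyp2g1 (-0.98 ± 0.27) leading.

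**Figure D3:**
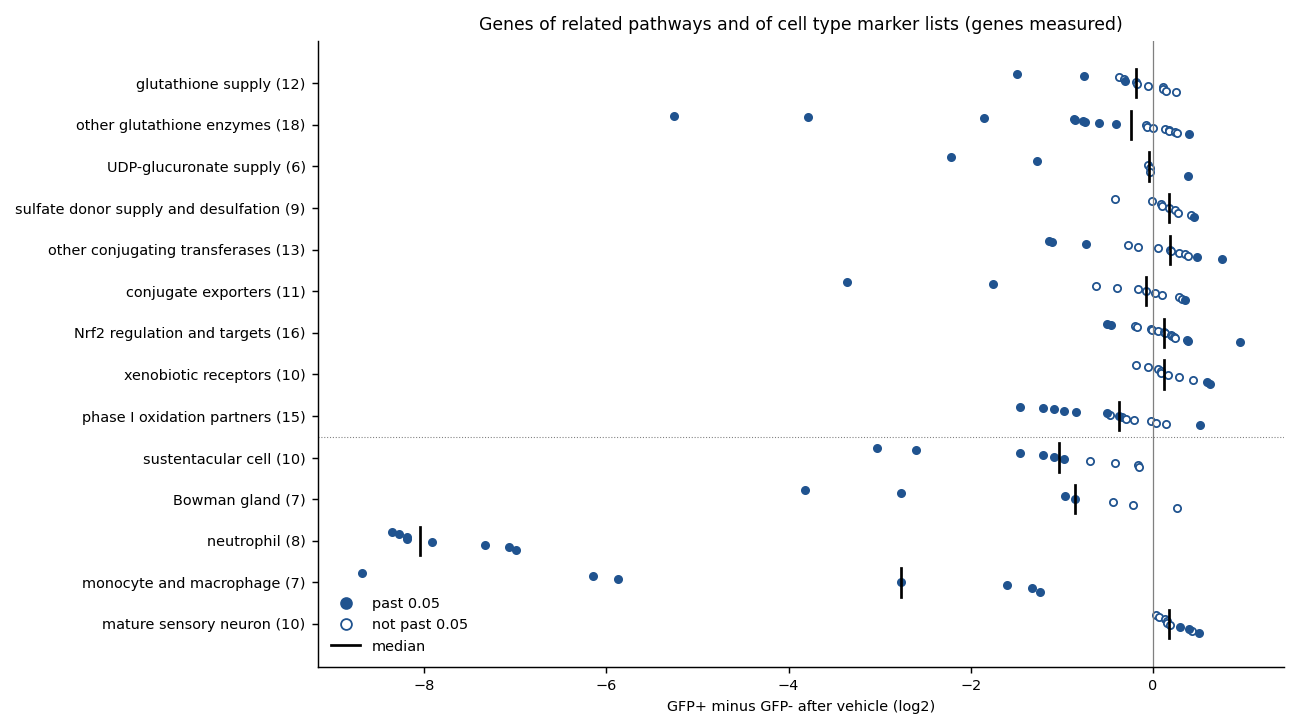
GFP+ minus GFP- difference after vehicle (log2, x axis) of each gene in the pathway lists (above the dotted line) and in 5 cell type marker lists; filled points passed an adjusted p of 0.05 and black bars are medians. Neutrophil markers lie farthest left with a median of -8.05 and sustentacular markers have a median of -1.04.

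Markers of several other cell types were lower in GFP+ cells too, and those of others were not. Of 10 measured sustentacular markers, 6 were lower in GFP+ cells after vehicle and 0 higher, with a median of -1.04 log2. The mean of the list ran from 11.29 to 11.69 in GFP- and from 9.92 to 10.63 in GFP+ arrays. The keratin genes Krt18 (-3.03 ± 0.25) and Krt8 (-2.60 ± 0.22) differed most, and 4 of the 10 are the Cyp genes just named. Bowman gland markers were lower in 4 of 7 (median -0.86), led by Sox9 (-3.82 ± 0.14), and their Gpx6 is also in the list of glutathione enzymes.

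Blood cell markers differed more. All 8 neutrophil markers were lower (median -8.05; list mean 14.64 to 15.62 in GFP- and 6.81 to 7.62 in GFP+ arrays), as were all 7 of monocytes and macrophages (median -2.77). Of the 10 sustentacular markers, 1, Hes1, had a mean under background in both fractions, and the other 9 were above it in both. All 7 microvillar and tuft cell markers, all 6 lymphoid and all 4 progenitor markers measured were lower as well, while 3 of 10 mature sensory neuron markers and 3 of 5 ciliated respiratory cell markers (median 0.39) were higher and 0 lower. Lower too were 6 of 10 immature neuron markers, 5 of 8 of mast cells and basophils, and both erythroid markers measured. The median was -0.01 for markers of horizontal basal cells (1 of 5 lower). Endothelial and fibroblast markers gave -0.18 (2 of 7 lower), and ensheathing glia markers 0.39 (1 higher and 1 lower of 4). Which of these cells carry the members' signal was not tested, and fewer cells of a type and less RNA per cell cannot be told apart in pooled sorted cells.

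Octanol itself gave no call among the members. Within GFP+ cells 0 of 53 passed in limma (background 0%), with 1 at an unadjusted p under 0.05 (1.89%; background 3.73%). Within GFP- cells 0 passed (background 0%), with 4 unadjusted (7.55%; background 4.58%). For the GFP+ to GFP- ratio 0 passed (background 0%), with 3 unadjusted (5.66%; background 4.54%). Of the 4 within GFP- cells, 3 are under background in every group. These comparisons and the fraction comparisons share arrays.

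The smallest p among members within GFP+ cells was that of Sult1e1: 6.93, 6.35, 7.72 and 7.51 log2 after octanol against 5.08, 6.24, 6.89 and 6.0 after vehicle. The groups overlapped. The difference was 1.08 ± 0.39 (95% interval 0.20 to 1.95, unadjusted p = 0.0206, adjusted p = 1), with 3 of 4 vehicle arrays under background. In the same octanol GFP+ arrays the mean of the sustentacular markers was 10.18, 10.22, 11.26 and 10.63, and that of the neutrophil markers 7.54, 7.59, 8.83 and 9.71. Both lists were highest in the replicates where Sult1e1 was highest, as were the monocyte and macrophage, progenitor and horizontal basal cell lists. The other lists were not, among them that of Bowman glands (9.33, 8.82, 9.09 and 8.24). The part of these lists in the difference was not tested.

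The other named members within GFP+ cells were Sult2a1 (0.24, 95% interval -0.04 to 0.52), Sult2b1 (0.27, -0.08 to 0.61) and Gsto1 (-0.31, -0.78 to 0.16). No member's groups were free of overlap in GFP+ cells, where 1.25% of all genes were higher and 0.964% lower without overlap.

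Within GFP- cells, Gstk1 was 8.60, 8.73, 8.57 and 8.59 log2 after octanol and 8.99, 9.39, 8.80 and 8.90 after vehicle. It was the 1 member whose groups did not overlap, being lower after octanol, as were 1.51% of all genes (1.06% were higher). The difference was -0.39 ± 0.14 (95% interval -0.71 to -0.08, unadjusted p = 0.0186, adjusted p = 0.982). Mgst1 followed at 0.51 (95% interval -0.01 to 1.02, unadjusted p = 0.0534), with Sult2b1 at -0.36 (-0.79 to 0.06) and Sult6b1 at -0.32 (-0.77 to 0.14).

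On the ratio, 3 members had an unadjusted p under 0.05 in limma, each with an adjusted p of 0.998. These were Sult2b1 (0.63, 95% interval 0.08 to 1.18), Ugt2b1 (-0.44, -0.86 to -0.02), which is under background in every array, and Sult1e1 (1.21, 0.00 to 2.42). Gsto1 gave -0.51 (95% interval -1.16 to 0.15) and Gsta2 0.41 (-0.16 to 0.98).

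How large an effect of octanol these arrays leave possible varied by gene. Of the 27 members above background in a group, 24 had a 95% interval within 1 log2 of 0 in GFP+ cells and 25 in GFP- cells. For Sult1d1 the interval was -0.25 to 0.22 in GFP+ cells and -0.32 to 0.14 in GFP- cells. For Gstm1 it was -0.66 to 1.33 in GFP+ cells, where its 4 arrays after octanol spread from 12.40 to 14.31.

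**Figure D4:**
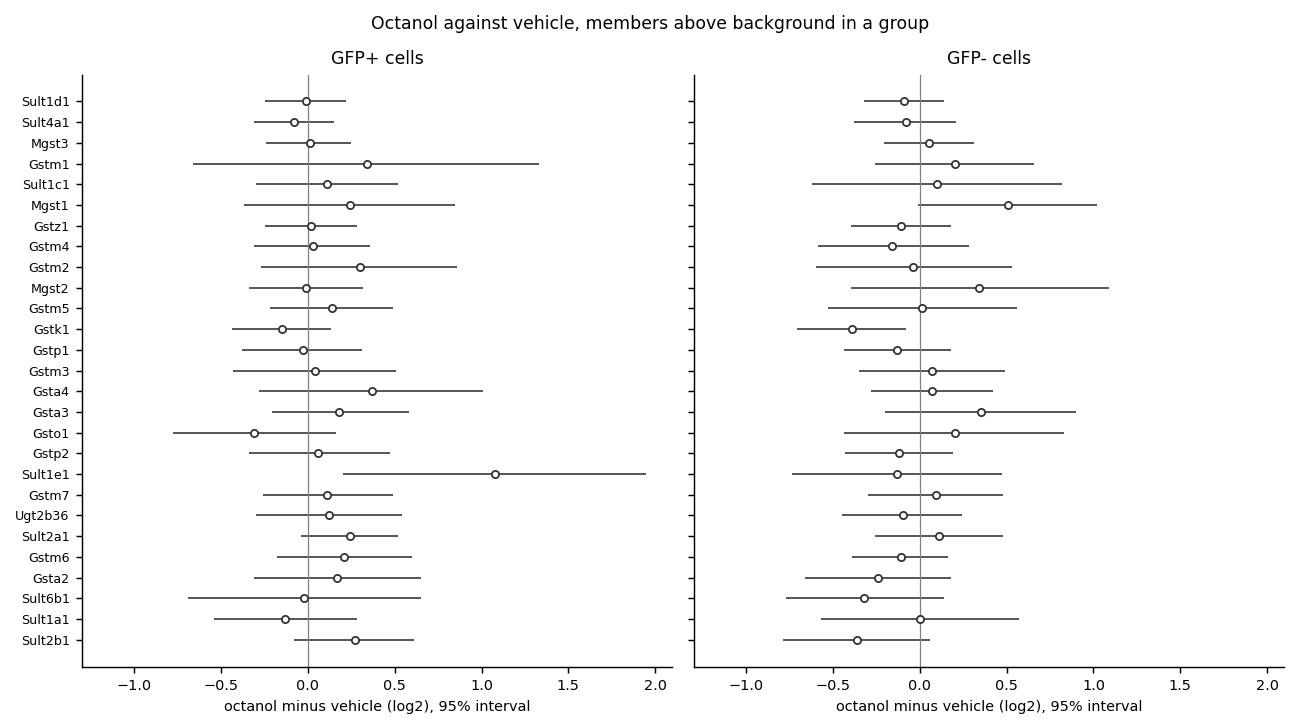
Octanol minus vehicle (log2, x axis) with its 95% interval for the 27 members above background in at least 1 group, in GFP+ (left) and GFP- cells (right), ordered by mean signal. Most intervals cover 0; that of Sult1e1 in GFP+ cells (0.20 to 1.95) and that of Gstk1 in GFP- cells (-0.71 to -0.08) do not, and neither gene passed after adjustment.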

How the data were processed

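The authors deposited log2 array signals, made with Affymetrix Expression Console per the submitters' processing notes. The settings and any scaling between arrays were not given in the sources used here. Of 28846 probe sets, 19572 name 1 gene; taking the highest mean over 16 arrays per gene left 19505 genes, the 53 members having 1 probe set each. Members, gene lists and tests were chosen with earlier results of these data known.

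Differences were fitted with limma 3.58.1 in R 4.3.3 (lmFit, eBayes, 2-sided), on 16 arrays for the fractions and their ratio, where each pool was a fixed effect and 6 residual degrees of freedom remained, and on 8 arrays for octanol within a fraction. P-values were adjusted by Benjamini-Hochberg over all genes tested. SE is the moderated standard error and intervals are 95%. The script was tested on simulated data. Values under background were raised to it for a fold given as at least N-fold.

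The pairing of fractions is inferred from 24 mice making 8 pools of 3. Residuals of the same pool correlated at 0.0779 to 0.222 (6 of 8 above 0.1), and arrays of 1 replicate number and fraction, from different mice, at 0.0582 to 0.332, so the check does not settle it.

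Every array is given for the 8 members of highest signal and the 10 of largest mean difference called after both exposures; for each octanol comparison the 4 smallest p-values above background are named, and up to 4 called genes per pathway list. Other members above background, and calls below it, are named with their values. The values in every array of Ugt2b36 and the named genes Ugt2b1, Gdap1 and Gpx6 were added after their values were seen. The labels name no batch. Promoters are RefSeq's (GRCm38.p6), found for 47 members. Alternatives were other scalings, blocks, filters and leaving out each replicate.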

Additional observations from a re-analysis of the deposited data

Results flagged for a closer look

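Of 80 groups of 4 arrays in 20 named members, 5 held an array far from the other 3, where chance alone gives about 1 in 20. Sult1c1 in GFP- cells after octanol was 11.32 log2 in replicate 4 and 12.69 to 12.76 in the other arrays. In the same array the Bowman gland (9.0) and sustentacular (11.04) list means were the lowest of their group. So were those of microvillar and tuft cells (8.52), lymphoid cells (7.30), ciliated cells (11.20), ensheathing glia (6.14), endothelium and fibroblasts (6.45) and mature neurons (15.96). The immature neuron, progenitor, horizontal basal, neutrophil, monocyte, erythroid and mast cell lists were not. The part of any list in the value was not tested. Sult1d1 in GFP- cells after octanol was 17.33 in replicate 1 and 17.43 to 17.44 in the others. Gstt2 in GFP- cells after octanol was 4.84 in replicate 3 and 5.77 to 5.91 in the others, all under background. Gstk1 in GFP- cells after octanol was 8.73 in replicate 2 and 8.57 to 8.60 in the others. Gstm4 in GFP- cells after vehicle was 10.78 in replicate 2 and 10.28 to 10.34 in the others.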

How the results depend on the processing

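The count of members called after vehicle was 21 and rose to 40 with arrays centred on their median; that after octanol was 25, and leaving out 1 replicate at a time gave 16 to 25, the lowest without octanol replicate 1. With no replicate block the counts were 19 and 23, and with the pool as a random block 21 and 25. Octanol within a fraction and the ratio gave 0 calls under every alternative run, the replicate block included. The difference of Sult4a1 after octanol turned to -0.00217 with arrays centred on odorant receptors; the cause was not tested. Of 46 member differences called, 26 kept direction and threshold under every alternative run on them and 20 did not under at least 1. The random block was not run on single members. The filter for genes above background covered 33 of the 46, so calls of genes under it, such as those of Gstt2, did not face it.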
